A study of Bos taurus with 24 samples.

Results

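The genes described here encode the nuclear pore and the carriers that move cargo through it in bovine oocytes. They were taken by symbol: nucleoporins (NUP and NUPL), importins (KPNA, KPNB and IPO), exportins (XPO), transportins (TNPO), RAN and its partners (RANBP and RANGAP), the mRNA export receptors (NXF and NXT) and the THO complex (THOC), without KPNA7. The rule found 54 rows of 53 symbols among 11306 rows, because NUP54 was listed at 2 loci. RNA-seq was carried out on 24 libraries, 6 in each of 4 groups: germinal vesicle (GV) and metaphase II (MII) oocytes collected in May (spring) and in July (summer). All oocytes came from crossbred, non-lactating Bos taurus beef cows of Angus type aged 3 to 6 years, and a library was a pool of 4 denuded oocytes of 1 animal. GV oocytes were frozen after aspiration from the ovary, and MII oocytes had been matured in vitro within their cumulus, so that time in culture and meiotic stage cannot be told apart. The study compared the seasons to learn how summer heat acts on the oocyte. Whether pools with the same number came from the same cow was not stated, and p-values measure the spread between pools.

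Nuclear pores are large rings of nucleoporins set into the nuclear envelope. Importins carry proteins inward and exportins carry them outward, and the GTPase Ran gives the direction by being loaded with GTP inside the nucleus and stripped of it outside. mRNA leaves through another route, in which the THO complex helps to package transcripts and NXF1 with NXT1 takes them through the pore. A GV oocyte holds a large nucleus, the germinal vesicle, whose envelope and pores break down when meiosis resumes. At MII there is no nuclear envelope, and the stored proteins and transcripts are used again when pronuclei form after fertilization.

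The deposited values are fragments per kilobase per 1000000 mapped fragments (FPKM). After 0.01 was subtracted and each value was multiplied by the span of its gene from start to stop, introns included, the values of a library were multiples of 1 common step: 98.5% of 93889 values worth under 30 reads lay within 0.05 of a whole number of reads. The divisor was therefore the span and not the exon length, and levels of different genes are not compared on this scale. The recovered reads summed to between 324688 (spring GV 6) and 28211503 (summer GV 5) per library, with a median of 3837016. A gene was taken to rise or fall at an adjusted p under 0.05 in limma on log2(FPKM + 1), over the 9526 rows above 0.1 FPKM in at least 1 library. The added 1 shrinks fold changes of genes with long spans, and members were long (median span 38222 bases, against 19714 for all genes), so the recovered reads per 1000000 (RPM) are given beside FPKM. Both are shares of a library, and a change in the total RNA of an oocyte cannot be seen in them.

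Spring GV 6, summer GV 2 and spring MII 6 stood apart. The alignment summary of the study lists a lower share of mapped reads for these than for any other library. Their recovered reads were 324688, 2543830 and 1028821, and they were the highest library of their group in 29 of 47, 35 of 47 and 28 of 48 tested members whose values differed within the group. Over all genes these libraries were highest in 44.5%, 53.0% and 42.0%. Counts are therefore also given without them. Oocyte markers (11 of 15 listed, among them ZP2, GDF9 and BMP15) summed to between 4893 and 16661 RPM in every library. Cumulus and granulosa markers (16 of 18) summed to 470 to 958 RPM in spring GV, 411 to 891 in summer GV, 331 to 728 in spring MII and 271 to 797 in summer MII. These ranges overlapped between all groups. AREG was without reads in all spring GV libraries, FSHR in all MII libraries and AMH in all spring MII libraries. The part of cumulus RNA in the results was not tested, and the number of attached cells and the RNA per cell cannot be told apart.

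Of the 54 rows, 48 passed the filter on low values and 6 did not. The latter were IPO5, IPO8, KPNA4, KPNA6, RANBP10 and NUP210. IPO5 and IPO8 are carriers of the importin beta family, KPNA4 and KPNA6 are importins alpha, RANBP10 is a Ran-binding scaffold, and NUP210 is a transmembrane nucleoporin. NUP210 had at most 20 reads in any library, and IPO8 was without reads in the median GV library. KPNA6 was read in all 24 libraries, with 1 to 96 reads. These 6 genes were not tested. Of the 48 that passed, RANGAP1 and IPO7 did so only through GV libraries (at most 0.0573 and 0.0712 FPKM in MII) and NUP54 on chromosome 29 only through MII libraries, so a fall of RANGAP1 was in part built into its passing.

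From GV to MII, scaffold and filament nucleoporins (NUP35, NUP155, RANBP2), the basket nucleoporin NUP153, the tRNA exporter XPOT, the THO subunit THOC7 and the mRNA export factor NXT2 rose in both seasons. The mRNA export receptor NXF1 and its partner NXT1, the importins KPNA2 and IPO4, the scaffold nucleoporin NUP205 and the Ran GTPase activator RANGAP1 fell in both. In spring, 10 of 48 tested members rose (20.8%, against 9.45% of all genes) and 6 fell (12.5%, against 14.7%). In summer, 9 rose (18.8%, against 7.67%) and 7 fell (14.6%, against 23.1%). The spring and summer comparisons share no library, but the same herd of 10 cows was sampled in both seasons. A cow may thus have given pools to both comparisons. The 7 members that rose in both were 70% of those in spring and 77.8% of those in summer, and 4.78% of all genes rose in both. The 6 that fell in both were all of those in spring and 85.7% of those in summer, and 13.2% of all genes fell in both. On FPKM every MII library lay above every GV library of the season in 3 members in spring (4.65% of all genes) and 3 in summer (3.07%). Every MII library lay below in 3 in spring (8.98%) and 7 in summer (14.7%). With the thresholds of the study, an unadjusted p under 0.05 and a fold over 2, 4 members were higher (3.57% of all genes) and 3 lower (8.25%) in spring, and 4 higher (2.2%) and 4 lower (9.26%) in summer. The fold change had the same sign in both seasons in 40 of the 48 members. The share of all genes with the same sign was not counted, so this count is not read as a trait of the members. The median log2 fold change of the members was 0.10 in spring and 0.05 in summer, against -0.03 and -0.02 for all genes. Under quantile normalization 19 members rose (20.4% of all genes did) and 4 fell (13.9%) in spring, and 18 rose (23.3%) and 7 fell (18.3%) in summer. Without the 3 libraries with a low mapped share, 18 members rose (19.3% of all genes) and 8 fell (22.6%) in spring, and 14 rose (13.1%) and 8 fell (26.2%) in summer. The shares over all genes thus moved with those of the members. Leaving out single libraries left 6 to 15 members that rose and 3 to 7 that fell in spring, and 5 to 14 and 6 to 8 in summer.

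**Figure D1:**
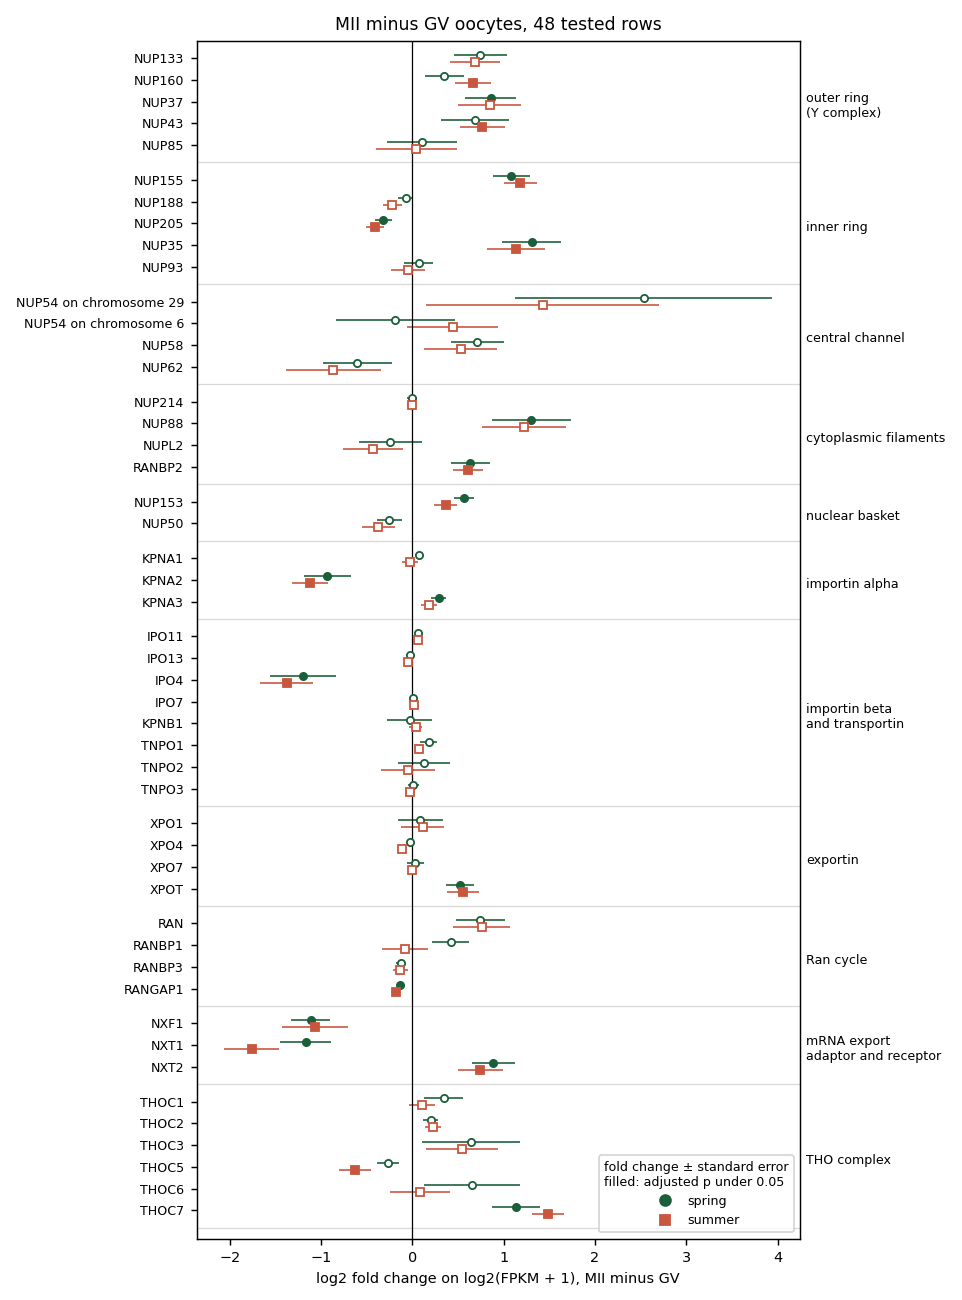
Log2 fold change of each of the 48 tested rows on log2(FPKM + 1), MII minus GV, with its standard error, grouped by role. Green circles are spring and red squares are summer, filled where the adjusted p is under 0.05. The outer ring lies to the right of 0 in both seasons on this scale, with NUP85 at 0.11 and 0.04 inside its error, while NXF1 and NXT1 lie at -1.07 or below.

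The outer ring, or Y complex, is the scaffold that faces both sides of the envelope. Of its 5 listed members, NUP133, NUP160, NUP37 and NUP43 had positive fold changes in both seasons on FPKM and on RPM. NUP85 had 0.11 ± 0.38 and 0.04 ± 0.44 on log2(FPKM + 1), and the opposite sign on RPM (-0.05 ± 0.51 and -0.14 ± 0.54). The median over the 5 was 0.68 in spring and 0.69 in summer on log2(FPKM + 1), against -0.03 and -0.02 for all genes. NUP37 passed the test in spring (0.86 ± 0.28, SE, adjusted p = 0.0416) but not in summer (0.84 ± 0.34, 0.0812). NUP160 and NUP43 passed in summer only, at 0.67 ± 0.20 (0.0214) and 0.77 ± 0.25 (0.0325). These 3 genes were named after their values had been seen, and the difference between seasons was not past the test for any member. The spring call of NUP37 was lost in 8 of 12 fits that left out 1 library (without spring GV 1, 2, 5 or 6, or spring MII 1, 2, 4 or 5), with an adjusted p of up to 0.0945, and on RPM (0.134). The call of NUP43 was lost in 9 of 12 and was kept without summer GV 2, summer MII 1 or summer MII 3 (up to 0.0707).

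The inner ring moved in both directions. NUP35, a scaffold nucleoporin that touches the membrane, lies on chromosome 2 from 13455251 to 13487209 (cattle assembly UMD3.1). Its FPKM ran from 5.25 over a median of 10.8 to 19.7 in spring GV oocytes and from 8.95 over 13.3 to 20.04 in summer GV oocytes. It ran from 14.96 over 32.7 to 40.2 in spring MII and from 16.9 over 29.7 to 67.0 in summer MII. Only the lowest MII libraries reached into the GV range, spring MII 3 and 6 in spring and summer MII 6 in summer. NUP35 rose by 1.31 ± 0.32 in spring (SE, n = 6 against 6, adjusted p = 0.0112) and by 1.14 ± 0.32 in summer (0.0163). On RPM the summer change was 0.99 ± 0.38 with an adjusted p of 0.0561.

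NUP155, another scaffold nucleoporin of the inner ring (chromosome 20, from 36999199 to 37048888), separated the stages fully. The 12 GV libraries lay between 1.13 and 2.80 FPKM with a median of 1.70, and the 12 MII libraries between 3.06 and 6.93 with a median of 5.48. No MII library of either season reached down to a GV library. NUP155 rose by 1.08 ± 0.20 in spring (adjusted p = 0.00253) and by 1.18 ± 0.18 in summer (0.000354), which on mean RPM was 2.32-fold and 2.53-fold. On FPKM all 12 MII libraries lay above all 12 GV libraries in 2 of the 48 members, NUP155 and THOC7, and in 0.955% of all genes.

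NUP205, the large scaffold nucleoporin related to NUP188, moved the other way. It had 0.271 to 0.789 FPKM (median 0.354) in spring GV, 0.338 to 1.04 (0.489) in summer GV, 0.0679 to 0.242 (0.149) in spring MII and 0.0954 to 0.287 (0.151) in summer MII. Within each season every MII library was below every GV library. NUP205 fell by 0.32 ± 0.09 on log2(FPKM + 1) in spring (adjusted p = 0.0279) and fell by 0.41 ± 0.10 in summer (0.00705). Over a span of 80952 bases its FPKM stayed below 1.05, and on RPM it fell by 1.81 ± 0.34 (0.00101) and fell by 2.03 ± 0.28 (7.91e-05). The spring call on log2(FPKM + 1) was lost without spring MII 1, 2, 4 or 5 (up to 0.0605). Its relative NUP188 had -0.07 ± 0.08 in spring and -0.22 ± 0.11 in summer on log2(FPKM + 1) (0.514 and 0.137). On RPM NUP188 passed as a fall in summer only, with a mean of 31.2 RPM in summer GV and 11.8 in summer MII. NUP93 had 0.07 ± 0.16 and -0.05 ± 0.18 on log2(FPKM + 1) (0.754 and 0.869).

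**Figure D2:**
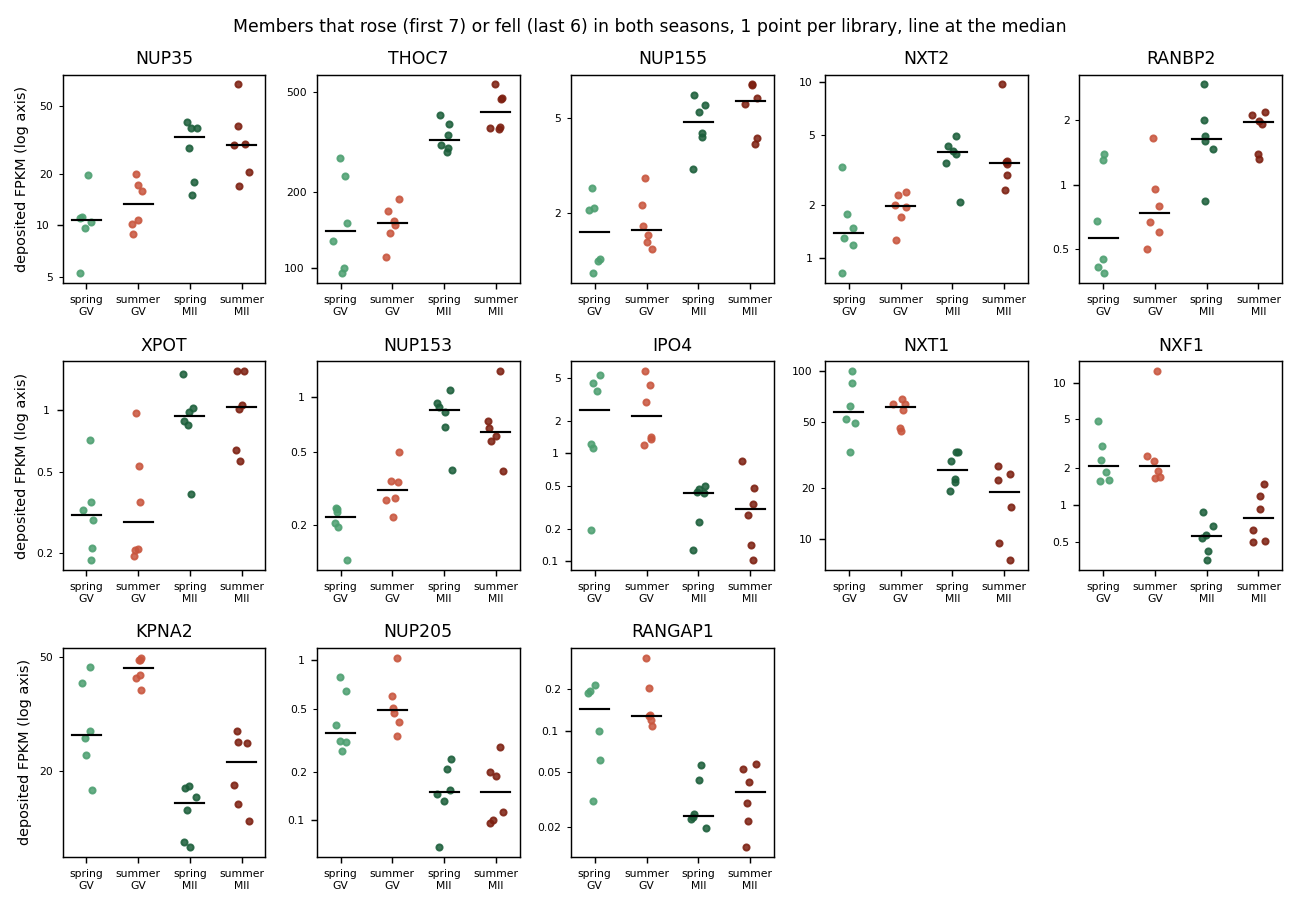
Deposited FPKM of the 13 members that changed in both seasons, 1 point per library on a log axis, with a line at the median of each group of 6. NUP155, THOC7 and NXF1 separate all 12 GV from all 12 MII libraries, and the other panels overlap in at least 1 library.

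The central channel is lined by nucleoporins rich in phenylalanine and glycine, among them NUP62, NUP54 and NUP58, and no row of it passed the test on FPKM. NUP62 ran from 0.632 to 16.1 FPKM over the 12 GV libraries (median 1.34) and from 0.246 to 2.97 over the 12 MII libraries (0.414). Spring GV 6, summer GV 2 and spring MII 6 were the highest of their groups. Its fold changes were -0.61 ± 0.38 (adjusted p = 0.251) and -0.87 ± 0.52 (0.224), whereas on RPM they were -1.56 ± 0.57 (0.0470) and -1.85 ± 0.68 (0.0434).

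NUP54 was listed at 2 loci, and in every library only 1 of them had reads. The row on chromosome 6 (from 92758059 to 92792505) held them in all 12 GV libraries and in 9 of 12 MII libraries. The row on chromosome 29 (from 50654262 to 50656136, a span of 1875 bases) held them in spring MII 2, spring MII 5 and summer MII 2, where the short span turned them into FPKM values as high as 380.7. The fold change of that row, 2.54 ± 1.41 in spring and 1.43 ± 1.28 in summer (adjusted p = 0.200 and 0.423), is thus a switch of the listed locus and not a level. Over all 29 symbols listed at 2 loci, 668 pairs of symbol and library had reads at 1 locus and 0 pairs at both. With both loci summed, NUP54 had 140 to 476 RPM in GV (median 311) and 246 to 1283 in MII (734). The summed change was 0.91 ± 0.38 in spring (0.0815) and 1.17 ± 0.34 in summer (0.0147).

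RANBP2, the main protein of the cytoplasmic filaments and a docking site for RANGAP1, had 0.387 to 1.39 FPKM (median 0.566) in spring GV and 0.504 to 1.65 (0.736) in summer GV. MII oocytes had 0.839 to 2.94 (1.64) in spring and 1.31 to 2.17 (1.95) in summer. The groups overlapped, since spring GV 3 and 6 lay above spring MII 1 and summer GV 2 above summer MII 1 and 3. RANBP2 rose by 0.64 ± 0.22 in spring (adjusted p = 0.0479) and by 0.61 ± 0.16 in summer (0.0139). The spring call was kept without spring GV 3, spring GV 6 or spring MII 1 and was lost in the other 9 fits with 1 library left out (up to 0.102), but it passed on RPM (1.02 ± 0.33, 0.0269). NUP88, which anchors the cytoplasmic face together with NUP214, was named after its values had been seen. It rose by 1.30 ± 0.43 in spring (0.0431), where its call was kept only without spring GV 6 or spring MII 1 among the fits with 1 library left out (otherwise up to 0.0979), and had 1.22 ± 0.46 in summer (0.0620). On RPM NUP88 passed in both seasons (0.0244 and 0.0325). NUP214 had a fold change of -0.01 ± 0.05 in each season (0.918 and 0.923).

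The nuclear basket was represented by NUP153, which docks cargo complexes on the inner face, and NUP50, which helps to release importin alpha cargo. NUP153 (chromosome 23, from 39534812 to 39605776) ran from 0.129 to 0.250 FPKM (median 0.221) in spring GV, from 0.221 to 0.504 (0.312) in summer GV, from 0.399 to 1.09 (0.852) in spring MII and from 0.396 to 1.38 (0.644) in summer MII. In spring all MII libraries were above all GV libraries, and in summer GV 2 was above MII 3. NUP153 rose by 0.56 ± 0.11 in spring (adjusted p = 0.00359) and by 0.36 ± 0.13 in summer (0.0429), or 3.30-fold and 1.97-fold on mean RPM. The summer call was kept without summer GV 2, summer MII 2 or summer MII 3 and lost in the other 9 fits that left out 1 library (up to 0.0875). NUP50 had -0.25 ± 0.14 and -0.37 ± 0.18 (0.186 and 0.137), and on RPM -1.08 ± 0.38 (0.0403) and -1.54 ± 0.45 (0.0144).

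Importin alpha proteins read the nuclear localization signal of a cargo. KPNA2, the importin alpha member with the largest number of recovered reads (KPNA7 was left out), lies on chromosome 19 from 49569375 to 49579205. It had 17.3 to 46.3 FPKM (median 26.9) in spring GV and 38.5 to 49.8 (46.0) in summer GV, and 10.9 to 17.8 (15.5) in spring MII and 13.5 to 27.7 (21.5) in summer MII. In spring GV 1 lay below MII 3 and 5, while in summer the stages did not overlap. KPNA2 fell by 0.93 ± 0.26 in spring (adjusted p = 0.0197) and fell by 1.13 ± 0.20 in summer (0.00110). The spring call was lost under quantile normalization (0.0769). Mean RPM was 2.45-fold and 2.59-fold lower in MII. KPNA3, named after its values had been seen, had 3.08 to 25.8 RPM in GV and 4.86 to 58.6 in MII. It rose in spring by 0.29 ± 0.08 on log2(FPKM + 1) (0.0206), and had 0.18 ± 0.09 in summer (0.136). KPNA1 did not pass in either season (0.08 ± 0.04 and -0.03 ± 0.09).

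Importins of the beta family bind the pore itself. IPO4, which carries histones and ribosomal proteins, had the largest falls on RPM among the members. Its FPKM ran from 0.196 to 5.28 (median 2.52) in spring GV, from 1.19 to 5.80 (2.20) in summer GV, from 0.128 to 0.504 (0.433) in spring MII and from 0.103 to 0.851 (0.305) in summer MII. In summer the stages did not overlap, and in spring only GV 6, with 1 read of IPO4, was within the MII range. IPO4 fell by 1.201 ± 0.36 in spring (adjusted p = 0.0296) and fell by 1.38 ± 0.29 in summer (0.00343), and mean RPM was 9.52-fold and 9.32-fold lower in MII. The spring call was lost without spring GV 2, 4 or 5 or spring MII 2, 4 or 5 (up to 0.0704).

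KPNB1, the importin beta that partners importin alpha, was sparsely read, with 5 to 141 reads per library. Spring GV 6 stood at 2.27 FPKM from 29 reads, and the other 5 spring GV libraries at 0.0462 to 0.0992. KPNB1 had -0.03 ± 0.24 in spring (adjusted p = 0.934) and 0.04 ± 0.07 in summer (0.747). Without spring GV 6 the spring value was 0.24 (0.00525), so that its direction rested on that library. TNPO1, the transportin that carries RNA-binding proteins, had 0.18 ± 0.10 (0.185) and 0.07 ± 0.04 (0.197). Of the 8 tested importins beta and transportins, 7 passed in neither season.

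Among the exportins, XPOT, which carries tRNA out of the nucleus, rose in both seasons and the other 3 tested (XPO1, XPO4 and XPO7) did not pass on FPKM. XPOT (chromosome 5, from 49550226 to 49587985) had 0.184 to 0.714 FPKM (median 0.308) in spring GV, 0.193 to 0.972 (0.282) in summer GV, 0.390 to 1.51 (0.935) in spring MII and 0.562 to 1.56 (1.04) in summer MII. Its groups overlapped through spring GV 3 and spring MII 1 and through summer GV 2 and summer MII 1 and 3. XPOT rose by 0.52 ± 0.15 in spring (adjusted p = 0.0275) and by 0.55 ± 0.18 in summer (0.0314), or 2.22-fold and 2.40-fold on mean RPM. The spring call was lost without spring GV 1, 2, 4 or 5 or spring MII 2, 3 or 5 (up to 0.0685), and the summer call without summer GV 1, 3, 5 or 6 or summer MII 2, 4, 5 or 6 (up to 0.0702). XPO1, the exporter of proteins with a leucine-rich signal, had 0.09 ± 0.25 and 0.11 ± 0.24 (0.798 and 0.749), and on RPM 0.11 ± 0.46 and 0.16 ± 0.39. XPO4 passed on RPM in summer (-1.68 ± 0.42, 0.00614).

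The Ran cycle was represented by RAN itself, RANBP1, RANBP3 and RANGAP1. RAN had 90.3 to 363 FPKM (median 180) over the 12 GV libraries and 179 to 462 (357) over the 12 MII libraries, with overlap in both seasons. Its fold changes were 0.74 ± 0.27 in spring (adjusted p = 0.0607) and 0.76 ± 0.31 in summer (0.0818), and 0.47 ± 0.27 (0.194) and 0.55 ± 0.40 (0.292) on RPM. RANBP1, which helps RANGAP1 to act on exported Ran, had 0.42 ± 0.20 (0.146) and -0.08 ± 0.26 (0.841). RANGAP1, the protein that makes Ran hydrolyse its GTP on the cytoplasmic side, fell. It had 3 to 219 reads per GV library and 1 to 13 per MII library, or 1.66 to 14.5 RPM in GV (median 7.90) and 0.215 to 2.82 in MII (0.987). In summer the stages did not overlap, and in spring GV 1 lay below MII 1 and 6. RANGAP1 fell by 0.13 ± 0.04 in spring (0.0367) and fell by 0.17 ± 0.04 in summer (0.00706) on log2(FPKM + 1), and fell by 1.84 ± 0.46 (0.00749) and fell by 2.15 ± 0.34 (0.000273) on RPM. It had passed the filter on low values only through GV libraries, so its falls are no independent support. The spring call on FPKM was lost without spring GV 2 or 5 or spring MII 1, 2, 3, 4 or 5 (up to 0.0804) and under quantile normalization (0.0892).

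The mRNA export receptor NXF1 and its partner NXT1 fell, and the paralog NXT2 rose. NXF1 (chromosome 29, from 41796852 to 41808166), which pulls mRNA through the pore, had 1.58 to 4.83 FPKM (median 2.10) in spring GV, 1.65 to 12.5 (2.10) in summer GV, 0.352 to 0.869 (0.556) in spring MII and 0.495 to 1.49 (0.778) in summer MII. All 12 MII libraries were below all 12 GV libraries, which held for 1 of the 48 members and for 5.62% of all genes. NXF1 fell by 1.11 ± 0.21 in spring (adjusted p = 0.00276) and fell by 1.07 ± 0.36 in summer (0.0409), and its mean RPM was 5.11-fold and 4.54-fold lower in MII. Summer GV 2, at 12.5 FPKM, widened the summer error, and without it the call was kept. It was lost without summer GV 4 or 6 or summer MII 1, 2, 3, 5 or 6 (up to 0.0835) and with no filter on low values (0.0502).

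NXT1, the small protein that pairs with NXF1, lies on chromosome 13 from 42396587 to 42399399. It had 33.0 to 100.4 FPKM (median 56.7) in spring GV, 44.0 to 68.1 (61.2) in summer GV, 19.2 to 33.1 (25.8) in spring MII and 7.44 to 27.2 (19.0) in summer MII. Only spring GV 3, at the bottom of its group, touched the MII range. NXT1 fell by 1.17 ± 0.28 in spring (adjusted p = 0.00916) and fell by 1.76 ± 0.30 in summer (0.000988), and no fit that left out 1 library lost either call. NXT2, the paralog of NXT1 on chromosome X (from 62392938 to 62399514), rose instead. It had 0.820 to 3.31 FPKM (median 1.39) in spring GV, 1.27 to 2.36 (1.97) in summer GV, 2.08 to 4.95 (3.99) in spring MII and 2.44 to 9.72 (3.45) in summer MII. On FPKM every summer MII library was above every summer GV library, and in spring GV 3 lay above MII 1. On RPM summer MII 6 (26.7) lay below summer GV 3, 4 and 6 (31.9, 34.1 and 31.2). NXT2 rose by 0.89 ± 0.23 (0.0147) and by 0.74 ± 0.25 (0.0382). The summer call was lost without summer GV 1, 3, 4, 5 or 6 or summer MII 3, 4 or 5 (up to 0.0793) and on RPM (0.78 ± 0.31, 0.0625).

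THOC7, a small subunit of the THO complex, had the lowest adjusted p of the members in summer. Its FPKM ran from 95.4 over a median of 140.0 to 274 in spring GV, from 111 over 151 to 188 in summer GV, from 290 over 321 to 406 in spring MII and from 356 over 415 to 536 in summer MII. On FPKM every MII library exceeded every GV library of either season. On RPM the stages overlapped. Spring GV 3 (626 RPM) lay above spring MII 3 and 6 (587 and 423) and summer MII 4 and 6 (617 and 579). THOC7 rose by 1.13 ± 0.27 in spring (adjusted p = 0.00884) and by 1.48 ± 0.18 in summer (7.41e-05), and all 24 fits that left out 1 library of the groups compared kept the call. THOC5, named after its values had been seen, fell in summer by 0.63 ± 0.18 (0.0186) and had -0.27 ± 0.12 in spring (0.106), but passed in both seasons on RPM (0.0160 and 0.000207). THOC1 had 0.34 ± 0.21 (0.253) and 0.11 ± 0.14 (0.599).

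RAN, THOC7 and NUP54 on chromosome 29 had short spans of 1050, 971 and 1875 bases. Each was placed on a chromosome other than that of the same symbol in the later RefSeq table (assembly ARS-UCD2.0), as were 3 of 53 matched member rows (5.66%) and 104 of 10779 rows over all genes (0.965%). Reads of these rows may be shared with a copy of the gene elsewhere, so the values are uncertain for the gene and for the locus. The listed loci are chromosome 10 from 40529290 to 40530339 for RAN and chromosome 17 from 18734077 to 18735047 for THOC7. RAN, THOC7, NXT1, NUP54 on chromosome 29 and KPNA2 had the highest mean FPKM of the members. The first 4 were among the 5 members with the shortest spans, while KPNA2 spans 9831 bases.

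On RPM, with NUP54 summed, 9 members rose in spring (9.2% of all genes) and 10 fell (22.7%), and in summer 11 symbols rose (7.69%) and 12 fell (31.4%). This scaling moved the median of all genes by -0.31 in spring and by -0.30 in summer. The 6 members that rose in both seasons on this scale were NUP153, NUP155, NUP88, RANBP2, THOC7 and XPOT. The 10 that fell were IPO4, KPNA2, NUP205, NUP50, NUP62, NXF1, NXT1, RANBP3, RANGAP1 and THOC5. RANBP3, a cofactor of XPO1, thus had -1.62 ± 0.46 in spring (adjusted p = 0.0138) and -1.48 ± 0.55 in summer (0.0464) on RPM, and -0.13 ± 0.05 (0.0861) and -0.13 ± 0.08 (0.256) on FPKM. No member that changed in both seasons on FPKM had the opposite sign on RPM.

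**Figure D3:**
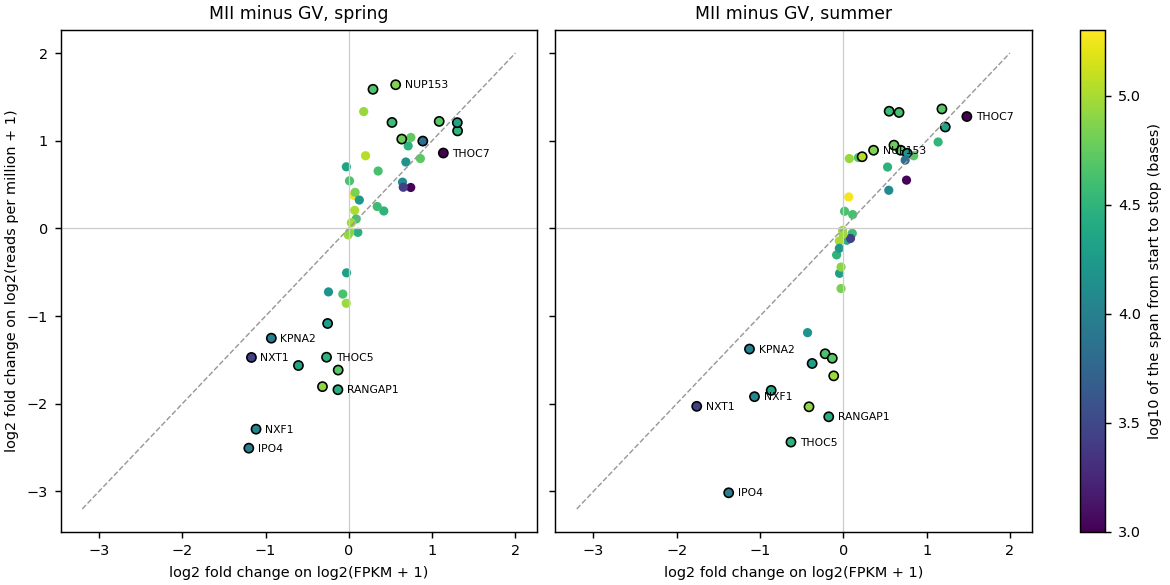
Log2 fold change of each tested member, MII minus GV, on log2(FPKM + 1) along the x axis and on log2(RPM + 1) along the y axis, in spring (left) and summer (right). Colour gives the log10 of the gene span in bases, black outlines mark an adjusted p under 0.05 on RPM, and the dashed line is equality. NUP153, with a span of 70965 bases, lies far from the dashed line, and THOC7, with a span of 971 bases, lies near it. RANGAP1, with 27492 bases and at most 0.340 FPKM in any library, also lies far from it.

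Summed over the rows of a role, RPM differed by role. The inner ring had a median of 1178 in spring GV and 1444 in summer GV, against 2678 and 2644 in MII, with overlap in both seasons. The outer ring had 695 and 747 in GV against 1168 and 1286 in MII, and no GV library reached an MII library. The mRNA export receptors had 478 and 494 against 195 and 174, again with no overlap. The THO complex had 915 and 876 against 1206 and 1340, and it too separated every GV library (713 to 1015) from every MII library (1064 to 1772). Importins alpha had 684 and 1031 against 374 and 454, with spring GV 6 (416) below spring MII 3 (419). Ran cycle genes (1042 and 1027 against 1365 and 1099) overlapped in both seasons. All 54 rows together took a median of 6506 and 7172 RPM in GV and 9139 and 9247 in MII. These sums are led by the few most read genes of each role and were not tested.

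**Figure D4:**
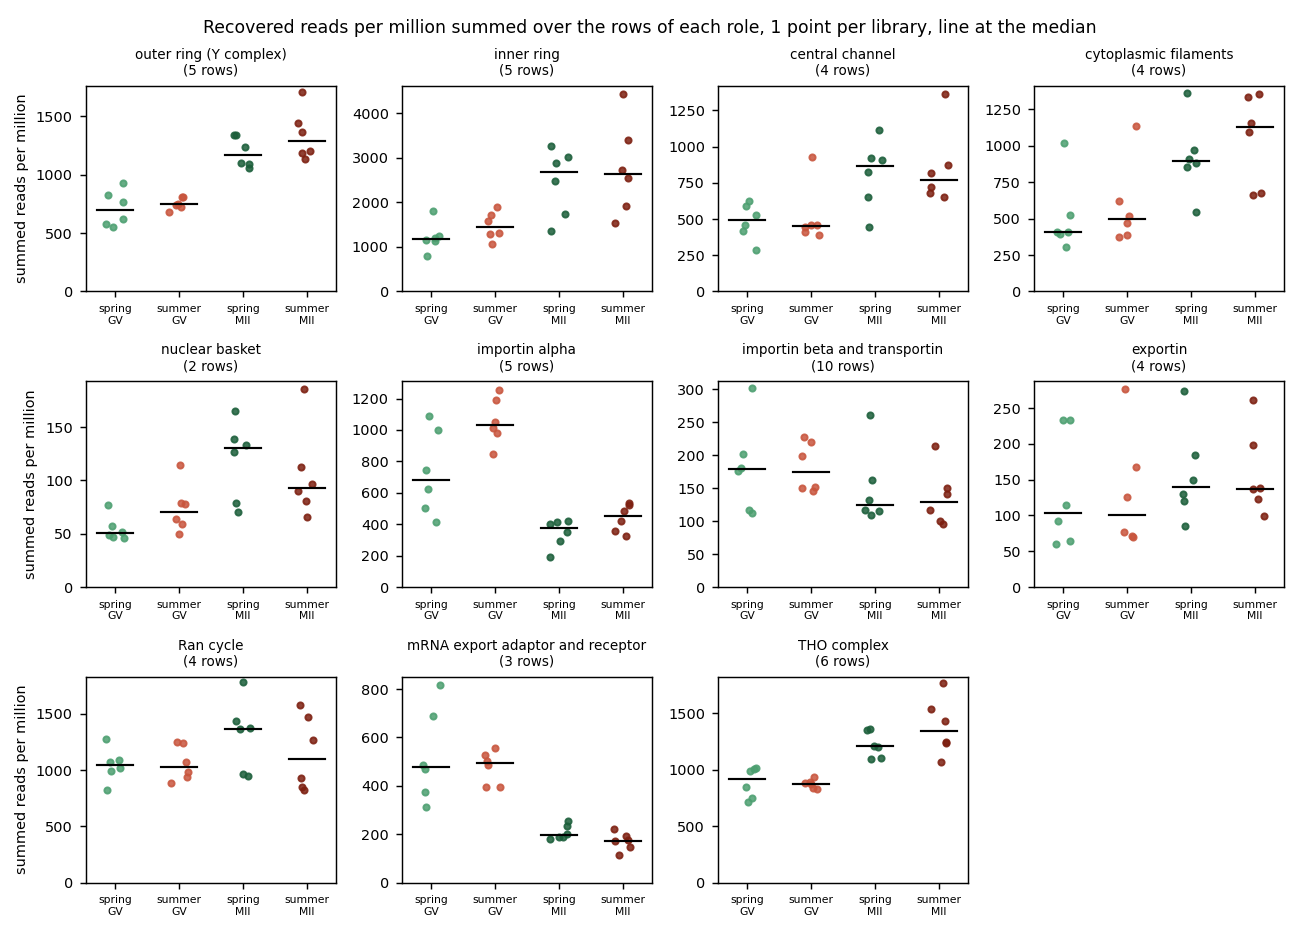
RPM (recovered reads per 1000000) summed over the rows of each role, 1 point per library, with a line at the median of each group of 6. The y axes start at 0 and differ between panels. The outer ring and the THO complex (higher in MII) and the mRNA export receptors (lower in MII) separate GV from MII libraries, and the exportins overlap in all groups.

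Season changed no member at an adjusted p under 0.05 in limma. In GV oocytes 0 of 48 members passed, as did 0% of all genes, and 2 members had an unadjusted p under 0.05 (1.55% of all genes did). KPNA1 was higher in summer GV (0.119 to 0.411 FPKM, median 0.146) than in spring GV (0.0597 to 0.102, 0.0773). Every summer GV library lay above every spring GV library, which held for 1 member and for 0.136% of all genes. The difference was 0.13 ± 0.05 (p = 0.0296, adjusted p = 1), and the exact two-sided permutation test gave 0.00216, the smallest p that 924 assignments allow. Summer GV 2 held the highest value, 0.411, and the other 5 summer libraries reached 0.153. KPNA2 was 0.64 ± 0.24 higher in summer GV (p = 0.0204, adjusted p = 1, exact permutation p = 0.0195), with spring GV 2 and 4 within the summer range. In MII oocytes KPNA2 had 0.45 ± 0.21, in the same direction (exact permutation p = 0.0563).

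In MII oocytes 0 of 48 members passed (0% of all genes) and 1 had an unadjusted p under 0.05 (2.11% of all genes). THOC7 was 0.33 ± 0.15 higher in summer MII (p = 0.0436, adjusted p = 1, exact permutation p = 0.0325), with medians of 415 and 321 FPKM and overlapping ranges. It had -0.02 ± 0.28 in GV. The test of whether maturation differed by season was passed by 0 of 48 members (0% of all genes) and by 0 members at an unadjusted p under 0.05 (1.8% of all genes). The median log2 difference of the members between summer and spring was 0.08 in GV and 0.00 in MII, against 0.01 and -0.01 for all genes. Of the 48 member values, 37 in GV and 25 in MII were positive. The share of positive values over all genes was not counted, so these counts are not read as a trait of the members. Over all genes, 115 were higher and 33 lower in summer GV at an unadjusted p under 0.05 in limma. In summer MII 32 were higher and 169 lower. The season comparisons share their libraries with the maturation comparisons.

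**Figure D5:**
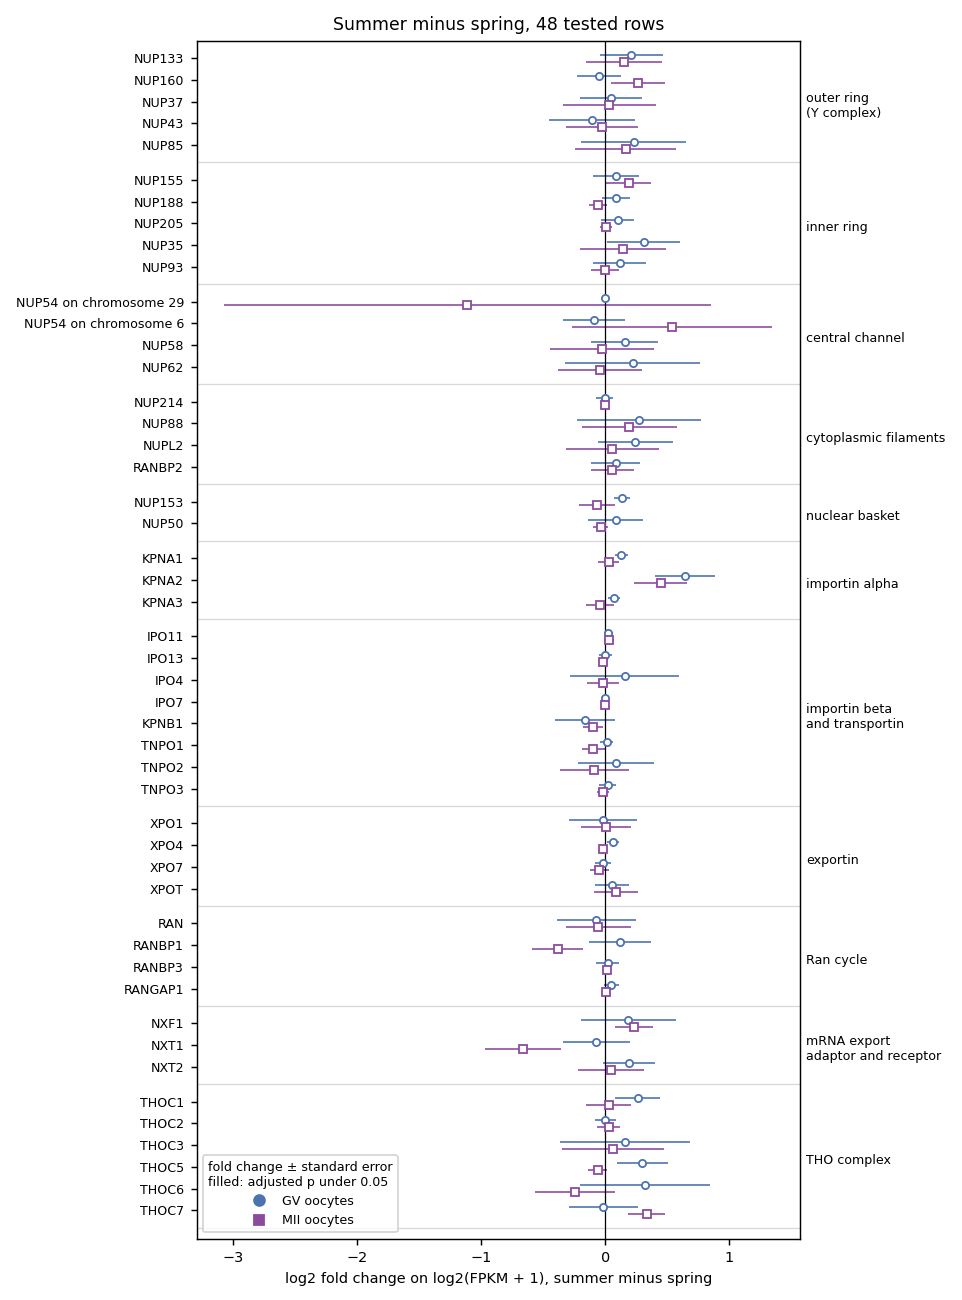
Log2 difference of each of the 48 tested rows on log2(FPKM + 1), summer minus spring, with its standard error, for GV (circles) and MII oocytes (squares). No symbol is filled, since no adjusted p is under 0.05, and KPNA2 at 0.64 in GV is the highest GV value.

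Of 28 other genes of pore assembly and RNA export, listed by role and outside the symbol rule, 3 rose (10.7%) and 5 fell (17.9%) in spring and 5 rose (17.9%) and 6 fell (21.4%) in summer. The spring shares and the summer share that fell lay near those of all genes (9.45%, 14.7% and 23.1%), and 7.67% of all genes rose in summer. AHCTF1 (ELYS), which seeds pores on chromatin, rose by 0.35 ± 0.07 and by 0.37 ± 0.09 (adjusted p = 0.00479 and 0.00946), and TPR, the filament of the nuclear basket, by 0.97 ± 0.22 and by 0.55 ± 0.18 (0.00730 and 0.0366). SARNP, an mRNA export factor that works with THO, rose by 1.05 ± 0.17 and by 1.01 ± 0.13 (0.00111 and 0.000141). ENY2, a subunit of the basket-bound export complex, rose in summer by 1.11 ± 0.19 (0.000912). The helicases DDX39A and DDX39B (UAP56), which act between THO and NXF1, fell, and DDX39A fell by 1.48 ± 0.25 and fell by 1.70 ± 0.15 (0.00142 and 1.13e-05). RANGRF, a Ran-binding release factor, fell by 1.90 ± 0.50 and fell by 2.02 ± 0.30 (0.0159 and 0.000306), and SNUPN, the import adaptor of spliceosomal particles, fell by 1.03 ± 0.26 and fell by 1.02 ± 0.25 (0.0131 and 0.00871). No gene of this list passed in a season comparison.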

How the data were processed

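RNA was measured in 24 libraries (4 groups of 6) made with the Smart-seq2 v4 and Nextera XT kits. The authors trimmed the reads, aligned them with STAR 2.5.3a to cattle assembly UMD3.1.1 and computed FPKM in Partek; the deposited FPKM values sum to the same total in every library and have 0.01 as their lowest value. Reads were recovered from these FPKM values as described (Python 3.11.15, pandas 2.3.3, numpy 2.4.6), and intervals from them would cover counting error only. Differences were tested with limma 3.58.1 (trend) in R 4.3.3 on log2(FPKM + 1), with the 2 groups compared in each fit and all 4 groups for the difference between seasons. Rows above 0.1 FPKM in at least 1 library were kept and p-values were adjusted over all of them by Benjamini-Hochberg. Chosen genes also had an exact two-sided permutation test. The step recovery and the fits were tested on simulated data.

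Genes were named if they changed in the same direction in both seasons, if they stood on a short list of central transport genes, if they were among the 5 members with the highest mean FPKM, if they had an unadjusted p under 0.05 between seasons (up to 3 per comparison), or if they missed the filter; exceptions are marked. The members and lists were chosen with earlier results of these data known. Alternatives were other pseudocounts, filters and scalings, all groups in one fit, the replicate block, the thresholds of the study (unadjusted p under 0.05 and fold over 2) and leaving out libraries; the RPM scale was added once the values were known. NUP98, NUP107 and KPNA7 were not analysed here.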

Additional observations from a re-analysis of the deposited data

Results flagged for a closer look

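In 88 groups of 6 libraries, 1 per named member and group, 11 had a highest or lowest library far from the rest. The limit used gives about 1 in 20 for independent values of a normal distribution. Groups here share libraries and some values are without reads, so the count is not set against that rate. Summer GV 2 gave 5 of them: KPNA1 at 0.411 FPKM (the others 0.119 to 0.153), NUP62 at 16.1 (0.632 to 2.25), NXF1 at 12.5 (1.65 to 2.53), RANBP1 at 14.7 (5.24 to 7.75) and TNPO1 at 0.239 (0.0431 to 0.0885). This library had a low mapped share. Spring GV 6 and spring MII 6, which also had one, gave KPNB1 at 2.27 (0.0462 to 0.0992, from 29 reads) and TNPO1 at 0.707 (0.104 to 0.204). Summer MII 2 gave NXT2 at 9.72 (2.44 to 3.54) and NUP54 on chromosome 29 at 380.7, where the other summer MII libraries had no reads at that locus. KPNA1 in summer MII 6 was 0.502 (0.0427 to 0.151), and XPOT in spring GV 3 was 0.714 (0.184 to 0.355).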

How the results depend on the processing

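Of the members that rose in spring (10), quantile normalization gave 19 (20.4% of all genes), leaving out the 3 libraries with a low mapped share 18 (19.3%), RPM without them 19 (15.2%) and the thresholds of the study 4 (3.57%), against 9.45% of all genes. Of those that fell in spring (6), RPM gave 10 (22.7% of all genes), RPM without the 3 libraries 11 (30.1%) and the thresholds of the study 3 (8.25%), against 14.7%. For summer, the 9 that rose (7.67% of all genes) became 18 (23.3%) under quantile normalization, 14 (13.1%) without the 3 libraries and 4 (2.2%) with the thresholds of the study. The 7 that fell (23.1%) became 4 with a mean FPKM of at least 1 (30.1%) and with the thresholds of the study (9.26%), 12 on RPM (31.4%), and 11 on RPM without the 3 libraries (33.5%) or with the replicate block (32.2%). The thresholds of the study use another p and a fold limit, and the mean filter tests fewer genes. The cause of the other shifts was not tested. In the season comparisons and the difference between seasons every setting, and every fit without 1 library, called 0 members.

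Without 1 library, 6 to 15 members rose and 3 to 7 fell in spring, and 5 to 14 rose and 6 to 8 fell in summer. Spring counts were 6 risen without spring GV 1, 2 or 5 or spring MII 2 or 5, and 3 fallen without spring MII 2, 4 or 5. Summer counts were 5 risen without summer GV 1, 3, 5 or 6 or summer MII 4 or 5, and 14 without summer GV 2. KPNB1 in spring turned from -0.03 to 0.24 without spring GV 6 (-0.090 to 0.24 over the fits without 1 library), to 0.22 without the 3 libraries and to 1.41 on RPM without them. Of the remaining results on single genes, 583 kept their direction and side of the threshold in fits without 1 library, 92 lost their call and 8 gained one. Under the other settings these numbers were 641, 33 and 44.

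With the replicate block 12 members rose (13.9% of all genes) and 7 fell (16.1%) in spring, and 12 rose (8.82%) and 7 fell (22.7%) in summer. The deviations of same-numbered libraries correlated from -0.44 to 0.76. The correlation was over 0.1 in 3 of 6 pairs for maturation in spring, 4 for maturation in summer, 1 for season in GV and 4 for season in MII, and 2, 1, 1 and 4 of 6 libraries correlated best with their own number. Since no comparison had every pair over 0.1, the numbers were not taken as pairs. Low reads limit RANGAP1, KPNB1, TNPO1 and the 6 untested genes.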

Other observations

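In 2 paralog pairs the balance of reads moved with maturation. NXT1 had 4.28 to 53.0 reads per read of NXT2 in GV libraries (median 15.6) and 0.327 to 6.80 in MII libraries (2.73). KPNA2 had 35.7 to 141 reads per read of KPNA3 in GV libraries (median 93.9) and 6.57 to 34.6 in MII libraries (14.1), so that no MII library reached the lowest GV library. The pairs were chosen after their values had been seen, and the ratios were not tested.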
